A study of Mus musculus with 6 samples.

Results

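The Serpina3 paralogs are a family of neighbouring serine protease inhibitor genes on mouse chromosome 12, read here in liver RNA of CgA-KO mice and their WT controls. Its 10 members were chosen by gene symbol (Serpina3a, b, c, f, g, i, j, k, m and n) from the 32212 genes of the count table, with earlier results of this same comparison known. Their differences between the genotypes are therefore a description and not independent evidence. Poly(A)-selected RNA was sequenced from 3 WT and 3 CgA-KO livers, 1 library per mouse. Both groups were male C57BL/6 mice, 2 yr old and kept on normal chow. CgA-KO mice lack Chga, the gene of the secretory prohormone chromogranin A, in the whole body, so the liver carries the deletion together with every other organ. Chga itself had 0 counts in all 6 livers and could not check the labels. The hepatocyte genes Alb (30668 to 66178 CPM), Apoa1 (3575 to 7302 CPM) and Ttr (1849 to 5378 CPM) were abundant in every library, where CPM are counts scaled to one common library total after TMM normalization, a correction for composition.

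Serpins trap their target protease by offering an exposed bait, the reactive centre loop, which the protease cuts and which then snaps into the body of the inhibitor and locks both proteins together. Humans have a single SERPINA3 gene, alpha-1-antichymotrypsin, an acute phase protein of the liver, whereas the mouse gene has been duplicated into a cluster whose members differ most in the loop. Serpina3k (contrapsin) is the abundant plasma member, Serpina3n is an acute phase inhibitor of granzyme B, cathepsin G and elastase, and Serpina3g (Spi2A) is an intracellular inhibitor of cathepsins in lymphoid and myeloid cells.

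In CgA-KO liver the members did not all differ in one direction. Serpina3c, Serpina3g, Serpina3f and Serpina3m were higher, by 12.3-, 5.31-, 4.67- and 2.03-fold, and the most abundant member, Serpina3k, was 2.35-fold lower in the fit without passing the test. Serpina3n was at nearly the same mean level in both genotypes, and Serpina3a, Serpina3b, Serpina3i and Serpina3j had few or no counts. In whole liver RNA, fewer cells of a type and less RNA per cell cannot be told apart.

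All 10 members lie within one stretch of chromosome 12 (GRCm38, GENCODE), and all but Serpina3c are on the plus strand. The targeted gene Chga is on chromosome 12 too. Whether the genotypes differ in other DNA linked to Chga was not tested. In this design such a difference could not be told apart from the loss of Chga. Serpina3a (chr12:104112724-104121896), Serpina3b (chr12:104127996-104139545) and Serpina3c (chr12:104146382-104153870) open the cluster. Serpina3f (chr12:104214544-104221129), Serpina3g (chr12:104236245-104241939) and Serpina3i (chr12:104263122-104269372) follow, then Serpina3j (chr12:104314553-104320725). Serpina3k (chr12:104338486-104346144), Serpina3m (chr12:104338486-104394257) and Serpina3n (chr12:104406729-104414329) close it. The annotated span of Serpina3m contains all of Serpina3k, because the transcript Serpina3m-201 starts in the first exon of Serpina3k and shares 60 bases with it, while Serpina3m-202 starts at 104387164 and shares 0 bases.

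**Figure D1:**
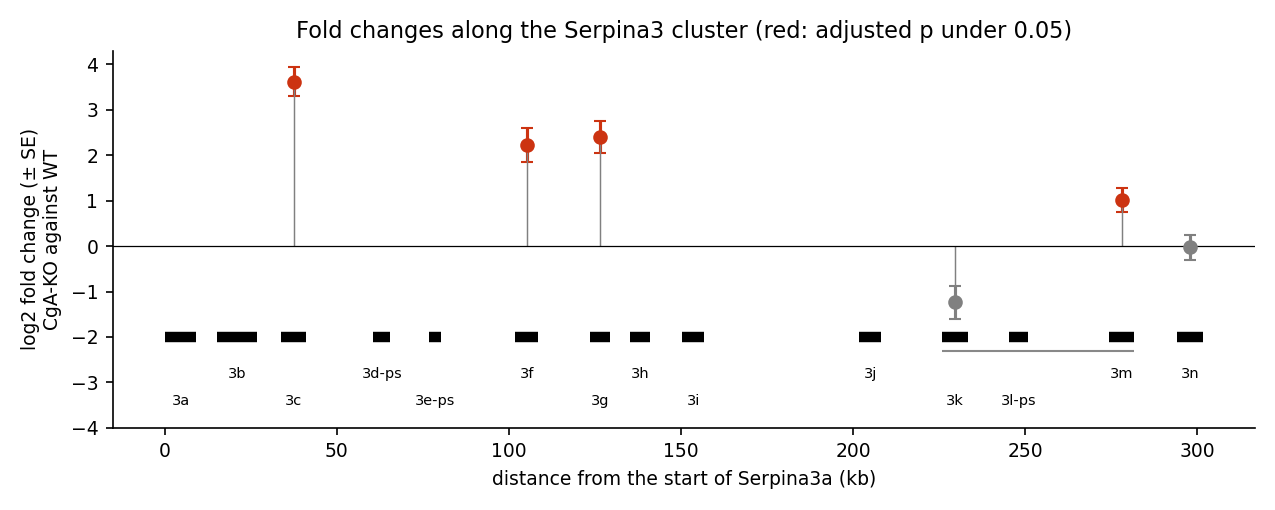
Log2 fold change (± SE, edgeR) of the 6 tested members against the distance of each gene from the start of Serpina3a in kb, with black bars for gene bodies and a grey line for the full annotated span of Serpina3m (its black bar is Serpina3m-202). The 4 members higher in CgA-KO (red) lie on both sides of Serpina3k (grey, -1.23), and members with no point had too few counts.

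The paralogs resemble each other enough that a short read may belong to several of them, so the sequence that separates them bears on every value below. The coding stretch of the reactive centre loop is shown for the 6 members with enough counts, from the hinge codons to the conserved codons behind the loop, because the family differs here and because it lets a read name its gene. Capitals mark bases that lie in no 31-base word shared with another Serpina3 gene, and lower case marks bases that do (GENCODE transcripts, 5′ to 3′).
Serpina3k: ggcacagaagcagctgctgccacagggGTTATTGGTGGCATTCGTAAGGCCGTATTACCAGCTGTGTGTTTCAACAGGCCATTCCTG
Serpina3m: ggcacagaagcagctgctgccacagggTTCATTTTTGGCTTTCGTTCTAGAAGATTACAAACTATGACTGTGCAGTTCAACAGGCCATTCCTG
Serpina3c: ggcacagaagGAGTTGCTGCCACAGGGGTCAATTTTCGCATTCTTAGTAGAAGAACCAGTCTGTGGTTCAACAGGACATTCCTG
Serpina3n: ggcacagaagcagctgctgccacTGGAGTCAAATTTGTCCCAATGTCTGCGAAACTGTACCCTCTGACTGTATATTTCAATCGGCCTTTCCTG
Serpina3f: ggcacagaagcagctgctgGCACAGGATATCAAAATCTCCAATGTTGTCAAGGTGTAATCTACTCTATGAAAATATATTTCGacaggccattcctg
Serpina3g: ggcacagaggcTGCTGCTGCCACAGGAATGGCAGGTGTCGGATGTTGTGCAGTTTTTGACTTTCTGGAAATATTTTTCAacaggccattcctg
Each stretch lies in the last exon of its gene: Serpina3k at chr12:104345269-104345355 and Serpina3m at chr12:104393769-104393861, Serpina3c at chr12:104147304-104147387 on the minus strand, Serpina3n at chr12:104413448-104413540, Serpina3f at chr12:104220245-104220340 and Serpina3g at chr12:104241072-104241164. Serpina3k and Serpina3m begin the stretch with the same bases and then diverge, with 60 of 87 and 66 of 93 bases outside shared words. Serpina3c had 74 of 84 such bases, Serpina3n 70 of 93, Serpina3f 63 of 96 and Serpina3g 68 of 93. In Serpina3i only 13 of 93 bases of this stretch were outside shared words.

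Over whole transcripts, Serpina3m had the highest share among the 10 members, with 35.0% of its 31-base words also present in another Serpina3 gene or pseudogene. The share was 28.4% for Serpina3g, 27.3% for Serpina3f and for Serpina3i, 24.2% for Serpina3k, 21.6% for Serpina3n and 16.9% for Serpina3c. The closest pair of tested members was Serpina3k and Serpina3m, with 399 shared words, which are 24.5% of those of Serpina3m and 19.7% of those of Serpina3k. Serpina3f and Serpina3g shared 350 words, and Serpina3c and Serpina3m 140. At the read length of 100 bases the shares dropped to 6.09% for Serpina3m, 4.85% for Serpina3k, 3.49% for Serpina3g, 3.397% for Serpina3f and 0.204% for Serpina3n, and Serpina3c shared 0 words with its paralogs. How the quantification divided the reads that several paralogs share was not tested, since only the resulting counts were analysed here.

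**Figure D2:**
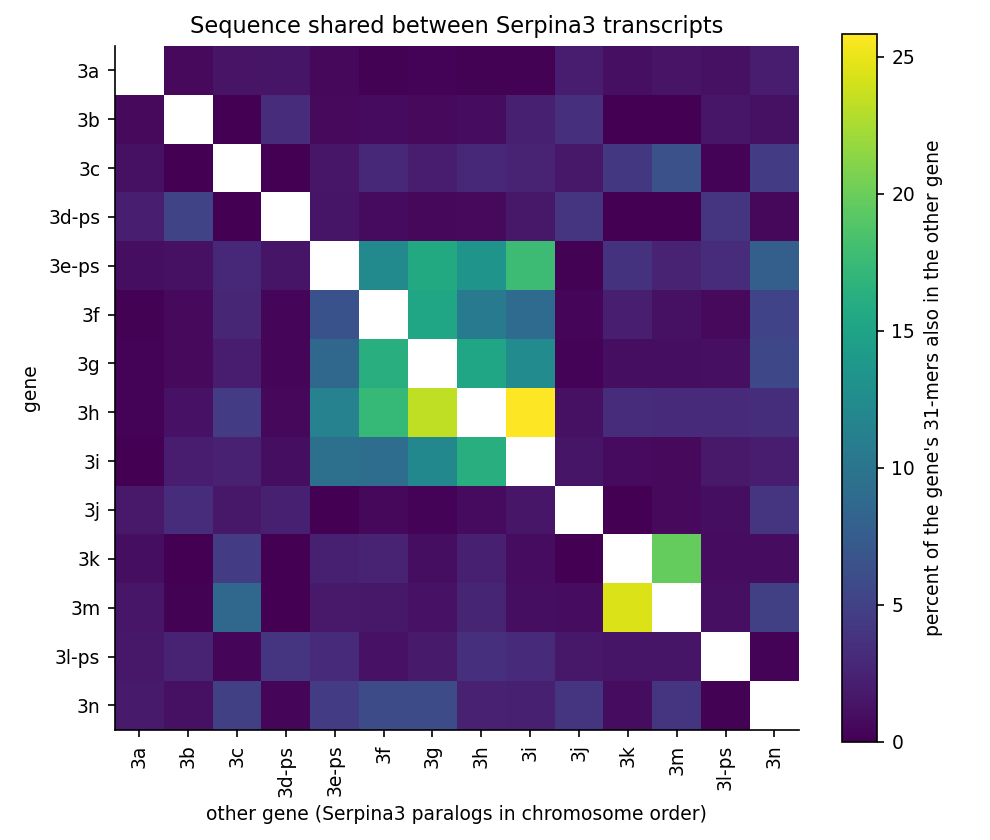
Percent of the 31-base words of each Serpina3 gene (vertical axis) that also occur in each other Serpina3 gene or pseudogene (horizontal axis), in chromosome order. The Serpina3k and Serpina3m pair and the block from Serpina3e-ps to Serpina3i hold most of the shared sequence. Serpina3c shares most with Serpina3m (6.41%), and the largest shares of Serpina3a, Serpina3b and Serpina3j are smaller.

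The upstream sequence was read for the members in the RefSeq promoter table (GRCm38.p6), which held windows for 8 of the 10 members, and Serpina3k and Serpina3m were not among them. Motifs were searched as plain letters on both strands in the 250 bases before the RefSeq start, from which positions are counted. This start can differ from the GENCODE start given above. For Serpina3g the window ends at 104236146, and the GENCODE start is 104236245. The windows of Serpina3f and Serpina3g are shown, the neighbouring pair with the most alike profile over the livers, with motif matches in capitals (Serpina3f chr12:104214294-104214543 and Serpina3g chr12:104235897-104236146, plus strand).
Serpina3f: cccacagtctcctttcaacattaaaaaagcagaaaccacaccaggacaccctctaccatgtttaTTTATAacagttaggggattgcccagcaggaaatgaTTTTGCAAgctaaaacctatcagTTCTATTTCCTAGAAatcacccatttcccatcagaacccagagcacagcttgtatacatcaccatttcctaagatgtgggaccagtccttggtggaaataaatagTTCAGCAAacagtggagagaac
Serpina3g: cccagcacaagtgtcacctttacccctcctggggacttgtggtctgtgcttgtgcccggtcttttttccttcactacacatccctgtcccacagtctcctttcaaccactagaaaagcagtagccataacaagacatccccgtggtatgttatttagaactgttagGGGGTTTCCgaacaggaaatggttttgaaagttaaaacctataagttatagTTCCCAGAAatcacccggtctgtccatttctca
Both windows hold the STAT-type letters TTCNNNGAA, at -121 in Serpina3f and at -33 in Serpina3g, and so does that of Serpina3i, at -102. Over all 32851 mouse windows 7.02% hold such a match. In each of these members the same bases, atcaccc, follow the match. In Serpina3f the match overlaps the interferon-response-type letters GAAANNGAA, at -127 on the other strand (7.13% of all windows). Serpina3g at -84 and Serpina3i at -153 hold the NF-kB-type letters GGGNNTTCC, found in 4.98% of all windows. Serpina3f further holds the C/EBP-type letters TTGCNNAA at -150 and -22 (9.56% of all windows) and the TATA box letters TATAAA at -186 (12.4%), the only motif found in Serpina3c, at -132. Another annotated start of Serpina3f gives an overlapping window, not shown. Counted from that start, TTCNNNGAA lies at -210, GAAANNGAA at -216 and TTGCNNAA at -239 and -111, and TATAAA has no match. Serpina3b holds GAAANNGAA at -224, TTGCNNAA at -152 and TATAAA at -28, and Serpina3a holds TATAAA. The windows of Serpina3n and Serpina3j had no match to these letters or to the HNF1-type letters TTAATNATT (1.397% of all windows). A match is a description of letters and not a measured binding site. Windows of paralogs can resemble each other, so matches in several of them are not independent.

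Depth was between 10558616 and 31087453 counts per library, lowest in WT replicate 1. A floor of 3 counts corresponded to 0.0951 to 0.269 CPM, which with the intervals given later covers counting error only. The low-count filter left 13867 genes, among them 6 of the 10 members. Over all tested genes, 8.60% were called higher and 3.84% lower in CgA-KO (edgeR quasi-likelihood test, Benjamini-Hochberg adjusted p under 0.05). Of the 6 tested members, 4 were called, all higher, and in these 4 every CgA-KO liver was above every WT liver, an arrangement that 19.0% of all tested genes showed. Serpina3k had every CgA-KO liver below every WT liver, as 14.6% of all tested genes did, and the livers overlapped for Serpina3n.

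Serpina3c, the member on the minus strand, showed the largest difference in the family. Its counts were 63, 112 and 107 in WT replicates 1, 2 and 3 and 781, 1879 and 1939 in CgA-KO replicates 1, 2 and 3. In CPM these were 5.64, 4.76 and 4.53 in WT and 36.3, 59.6 and 86.9 in CgA-KO, or 4.98 ± 0.586 against 60.9 ± 25.4 (SD, n = 3 each). The lowest CgA-KO liver lay far above the highest WT liver, and the WT livers were close together. The log2 fold change was 3.62 (SE 0.326, edgeR adjusted p = 0.00242), and it stayed between 3.30 and 3.92 when each library was left out.

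Serpina3g, the intracellular cathepsin inhibitor, had 105, 89 and 118 counts in the WT livers and 577, 1306 and 591 in the CgA-KO livers. Its levels were 9.40, 3.79 and 4.998 CPM in WT and 26.8, 41.4 and 26.5 CPM in CgA-KO, with means of 6.06 ± 2.96 and 31.6 ± 8.53. WT replicate 1, the shallowest library, was the highest of the WT livers and CgA-KO replicate 2 the highest of all. The log2 fold change was 2.41 (SE 0.351, edgeR adjusted p = 0.00587).

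Serpina3f, its neighbour, was the lowest of the tested members, with 32, 36 and 27 counts in WT and 168, 316 and 162 in CgA-KO. In CPM it stood at 2.87, 1.53 and 1.14 in WT and at 7.80, 10.02 and 7.26 in CgA-KO, or 1.85 ± 0.904 and 8.36 ± 1.46. The same livers were highest as for Serpina3g: WT replicate 1 among the WT and CgA-KO replicate 2 among the CgA-KO livers. The log2 fold change was 2.22 (SE 0.371, edgeR adjusted p = 0.00882). Serpina3c, Serpina3f and Serpina3g stayed called in each of 15 alternative fits, with adjusted p-values up to 0.0403.

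Serpina3m, the member closest in sequence to Serpina3k, was more abundant and moved less. Counts were 1876, 4319 and 3391 in WT and 5143, 10555 and 9650 in CgA-KO, that is 168, 184 and 144 CPM against 239, 335 and 433 CPM. The means were 165 ± 20.2 and 335 ± 96.9 CPM, and CgA-KO replicate 1 was nearest to the WT livers. The log2 fold change of 1.02 (SE 0.261, edgeR adjusted p = 0.0360) kept its direction in all 14 alternative fits and its call in 9. The call was lost without WT replicate 2 (adjusted p = 0.0636), WT replicate 3 (0.167), CgA-KO replicate 2 (0.0706) or CgA-KO replicate 3 (0.0867), and with a replicate block (0.0633).

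Serpina3k, the plasma contrapsin, supplied most of the family's counts. It had 60973, 170240 and 127540 counts in WT and 33531, 79105 and 81032 in CgA-KO, which are 5461, 7243 and 5402 CPM against 1557, 2509 and 3632 CPM. The means were 6035 ± 1046 and 2566 ± 1039 CPM, with no overlap between the genotypes. The log2 fold change of -1.23 (SE 0.361) had an edgeR adjusted p of 0.0567 and was not called. DESeq2 called it (log2 fold change -1.25, adjusted p = 0.00160), a rule under which 6.16% of all genes were called lower, and so did limma-voom (-1.30, adjusted p = 0.0429) and edgeR without CgA-KO replicate 3 (-1.54, adjusted p = 0.0421).

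Serpina3n, the acute phase inhibitor of granzyme B, had 4419, 6631 and 7726 counts in WT and 5171, 14005 and 6699 in CgA-KO. Its levels were 396, 282 and 327 CPM in WT and 240, 444 and 300 CPM in CgA-KO, or 335 ± 57.2 and 328 ± 105. CgA-KO livers held both the lowest and the highest value of the 6. The log2 fold change was -0.03 (SE 0.276, edgeR adjusted p = 0.957), and its sign turned with the scaling, to 0.21 with library size alone and 0.023 with upper-quartile factors. These data set no direction for Serpina3n.

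**Figure D3:**
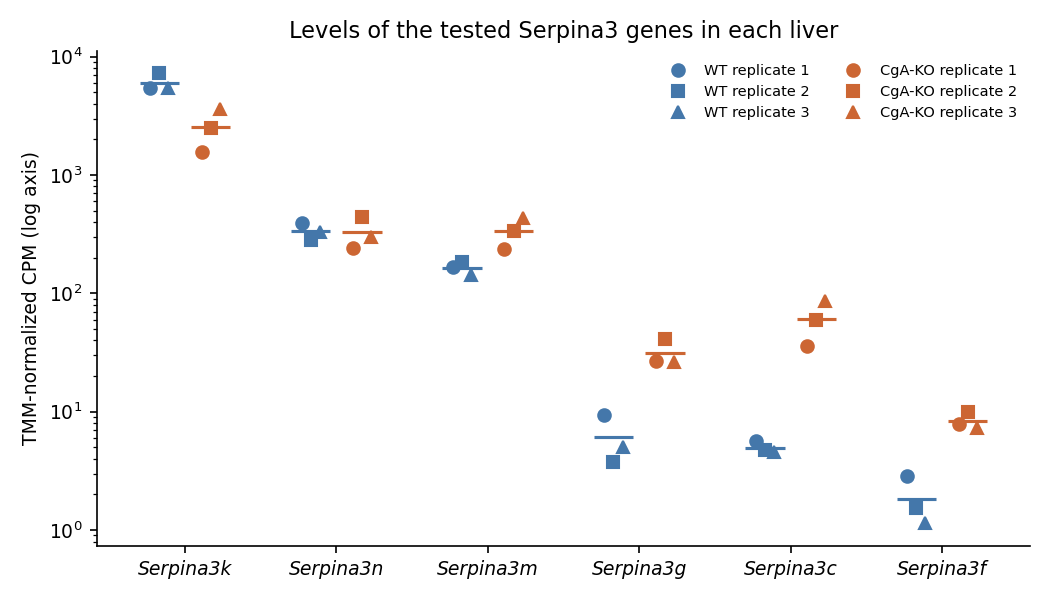
TMM-normalized CPM (log axis) of the 6 tested Serpina3 genes in each of the 3 WT (blue) and 3 CgA-KO (orange) livers, with a symbol per replicate and a line at the group mean. The points of Serpina3m, Serpina3g, Serpina3c and Serpina3f separate upwards in CgA-KO, those of Serpina3k downwards, and those of Serpina3n mix.

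The remaining 4 members were below the filter. Serpina3a had 0 counts in every liver. Serpina3b had 0 counts in the WT livers and 0, 11 and 1 in the CgA-KO livers, and Serpina3j had 1 count, in WT replicate 3. Serpina3i, whose loop stretch is nearly all shared, had 0, 1 and 5 counts in WT and 9, 10 and 4 in CgA-KO. No difference was detectable for these genes at this depth.

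Per kilobase of the main annotated transcript, the order of mean levels in WT liver was Serpina3k (2934 CPM per kb), Serpina3n (162), Serpina3m (99.5), Serpina3g (3.36), Serpina3c (2.25) and Serpina3f (0.822). Serpina3g and Serpina3c overlapped in WT, with ranges of 2.10 to 5.22 and 2.05 to 2.55 CPM per kb, and the other neighbours in this order did not overlap. In CgA-KO liver the order was Serpina3k (1247), Serpina3m (202), Serpina3n (159), Serpina3c (27.5), Serpina3g (17.5) and Serpina3f (3.72). Serpina3m and Serpina3n then overlapped, and so did Serpina3c and Serpina3g. The CgA-KO livers spanned 16.4 to 39.3 CPM per kb for Serpina3c and 14.7 to 23.0 for Serpina3g.

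Because all paralogs are counted in the same library, their shares of the family's counts do not depend on the scaling between libraries. Serpina3k made up 92.0% ± 1.74 (SD, n = 3) of the Serpina3 counts in WT and 76.2% ± 4.11 in CgA-KO. Serpina3m made up 2.53% ± 0.216 in WT and 10.3% ± 0.923 in CgA-KO, Serpina3c 0.0774% ± 0.0158 and 1.80% ± 0.117, and Serpina3g 0.0965% ± 0.0542 and 1.03% ± 0.379. Serpina3n was at 5.26% ± 1.47 and 10.4% ± 3.30, and Serpina3f at 0.0289% ± 0.0160 and 0.276% ± 0.105. The widest 95% Wilson interval of any share spanned 0.808 percentage points, less than the SD of Serpina3k in either genotype.

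For each 100 counts of Serpina3k there were 3.08, 2.54 and 2.66 counts of Serpina3m in WT and 15.3, 13.3 and 11.9 in CgA-KO, a ratio 4.91 times as high. The ratio of Serpina3c to Serpina3k was nearly constant among the CgA-KO livers, with 0.103, 0.0658 and 0.0839 per 100 in WT and 2.33, 2.38 and 2.39 in CgA-KO. For Serpina3n to Serpina3k the values were 7.25, 3.90 and 6.06 in WT and 15.4, 17.7 and 8.27 in CgA-KO, where the lowest CgA-KO liver lay just above the highest WT liver. A lower Serpina3k by itself raises each ratio to it and the share of every other member. The ratio and share of Serpina3n therefore do not show a higher level of Serpina3n. The ratio between the neighbours Serpina3g and Serpina3f overlapped, with 337 ± 95.3 counts of Serpina3g per 100 of Serpina3f in WT and 374 ± 35.8 in CgA-KO.

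**Figure D4:**
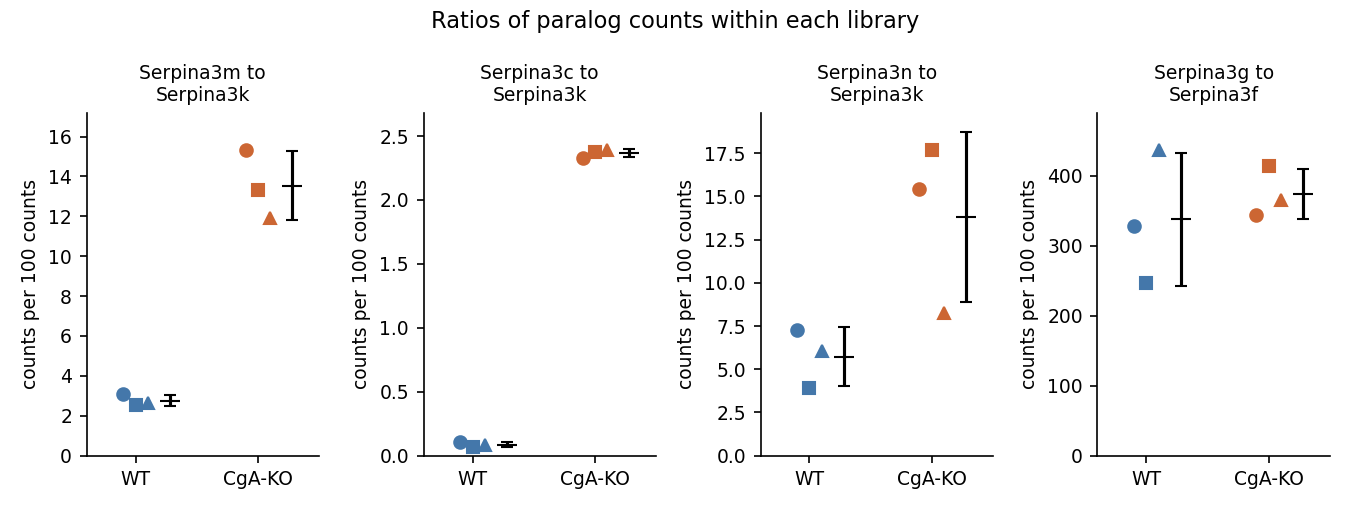
Counts of one paralog per 100 counts of another within each library, for 3 WT (blue) and 3 CgA-KO (orange) livers, with a circle, square and triangle for replicates 1, 2 and 3 and black bars for mean ± SD. The ratios of Serpina3m, Serpina3c and Serpina3n to Serpina3k are above all WT values in every CgA-KO liver, and those of Serpina3g to Serpina3f overlap. A lower Serpina3k by itself raises each ratio to it.

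Reads shared only among the 10 members cannot move a sum over them, so the members were summed into 1 gene and tested again. Reads shared with the pseudogenes, Serpina3h among them, which are not in the sum, could still enter or leave it. The sum was 67468, 181428 and 138915 counts in WT and 45380, 107187 and 100078 in CgA-KO, which are 6548 ± 1017 and 3331 ± 1191 CPM. Its log2 fold change was -0.98 (SE 0.343) and was not called (edgeR adjusted p = 0.0976). Joining only Serpina3k and Serpina3m, the closest pair, gave -1.10 (SE 0.356, edgeR adjusted p = 0.0777), and Serpina3c, Serpina3f and Serpina3g stayed called beside it. Most of the counts in both sums are those of Serpina3k.

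**Figure D5:**
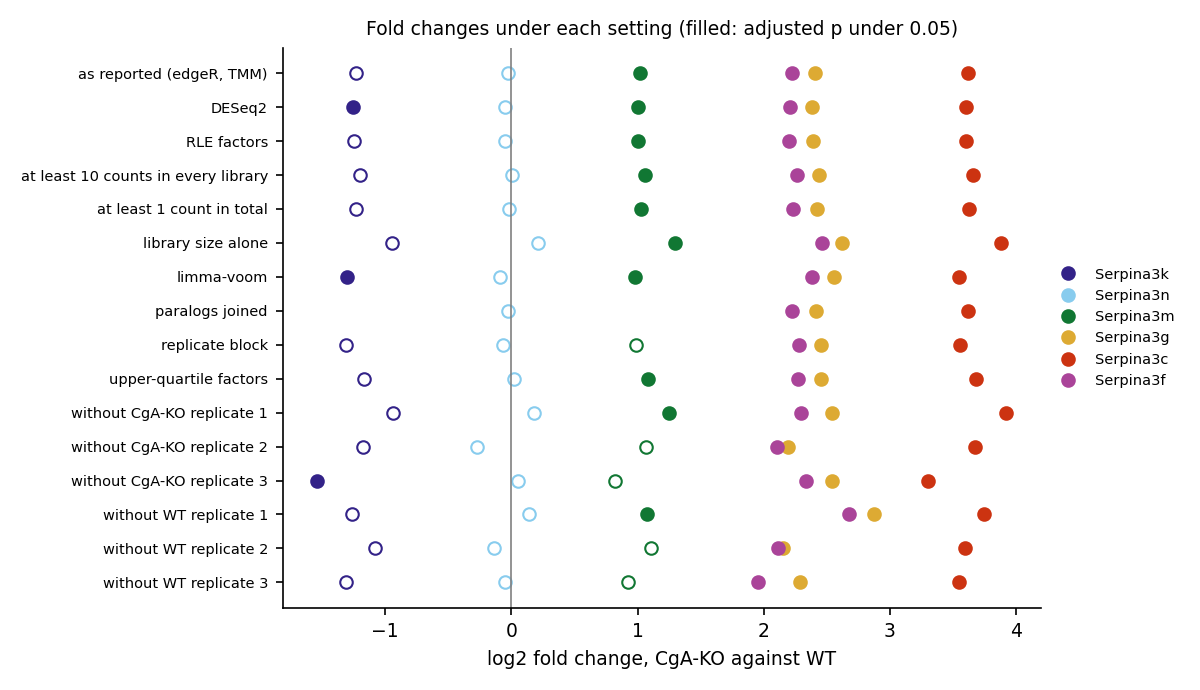
Log2 fold change of each tested member under the reported fit and its alternatives, filled where the adjusted p was under 0.05. Serpina3c, Serpina3g and Serpina3f stay filled throughout, Serpina3m and Serpina3k change with the setting, and Serpina3n crosses 0.

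Profiles were compared by the root mean square difference of log2 CPM, centred over the 6 libraries, as a description. Within the family Serpina3f and Serpina3g were closest (0.266), then came Serpina3m and Serpina3n (0.623), and Serpina3c and Serpina3k were farthest apart (2.41). Among all other genes, the profiles nearest to Serpina3c were Ear2 (0.201), Ccr2 (0.306) and Tlr13 (0.353), the last being a receptor for bacterial RNA and Ccr2 the chemokine receptor of monocytes. Nearest to Serpina3f were Ifi30, a lysosomal thiol reductase (0.0752), Traip (0.125) and Mrgprb11-ps (0.130), and nearest to Serpina3g were Dram1 (0.146), Panx1 (0.172) and Slc7a1 (0.180). Serpina3k was nearest to Fam110c (0.111), the lipase Abhd6 (0.166) and Tiam2 (0.192). Serpina3m was nearest to Layn (0.132), Adamts12 (0.151) and Snx12 (0.154), and Serpina3n to Cd34 (0.0876), Stn1 (0.0992) and Samd10 (0.0996). Some of these genes were near the floor of 0.0951 to 0.269 CPM, where a profile is poorly measured. WT means were 0.204 CPM for Traip, 0.248 for Mrgprb11-ps, 0.259 for Adamts12 and 0.362 for Layn.

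The summed levels of Kupffer cell, T and NK cell, neutrophil and stellate cell markers were higher in every CgA-KO liver than in every WT liver. Serpina3c, Serpina3f, Serpina3g and Serpina3m had the same arrangement, as did 19.0% of all tested genes. The blood progenitor sum was lower in every CgA-KO liver (110.6 to 129.1 CPM in WT against 75.4 to 109.8 CPM). Of all tested genes, 14.6% were lower in this way. The sums of B and plasma cell markers overlapped (33.4 to 144 against 76.8 to 184 CPM). Of 10 Kupffer cell markers 9 were called higher (median log2 fold change 3.04), with summed levels of 131 to 342 CPM in WT and 1431 to 2057 CPM in CgA-KO. Of 9 T and NK cell markers 5 were called higher (4.13 to 16.1 against 49.4 to 122 CPM), and of 5 tested neutrophil markers 3 (3.81 to 13.4 against 30.5 to 360 CPM for the 10 listed), with Mpo and Ctsg at 0 in every WT liver. Stellate cell markers had 4 of 10 higher (204 to 265 against 398 to 558 CPM). Their part in the Serpina3 differences was not tested. By edgeR the counts for T and NK cells and for neutrophils dropped to 0 without WT replicate 3, the first also without WT replicate 2, while those for Kupffer cells stayed at 7 to 9. Without CgA-KO replicate 2 the T and NK cell count was 2, and the neutrophil count was 1 without that library, WT replicate 1 or WT replicate 2. The stellate count was 1 without WT replicate 3 and 2 without CgA-KO replicate 1 or 2.

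None of 10 hepatocyte markers was called by edgeR, with 1 at an unadjusted p under 0.05 and 1 called by DESeq2, and their summed levels overlapped (62710 to 102514 CPM in WT and 55997 to 90657 CPM in CgA-KO). Of the endothelial markers 2 of 10 were higher and 1 lower, of the B and plasma cell markers 1 of 10 was higher, of 6 tested blood progenitor markers 1 was lower, and of 6 tested bile duct markers 0 were called by edgeR or DESeq2, with 1 at an unadjusted p under 0.05. Endothelial calls numbered 5 without WT replicate 1. The single B cell call became 3 without WT replicate 1 and 0 without WT replicate 2, WT replicate 3 or CgA-KO replicate 1. Among the fits with a library left out, only that without CgA-KO replicate 2 kept the progenitor call. DESeq2 and limma-voom also kept it.

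The other genes around these inhibitors were read by lists. The proteases that clade A3 serpins bind had 3 of 10 tested genes called higher, with a median log2 fold change of 1.26, among them Gzmb, granzyme B (0.419 ± 0.254 to 6.18 ± 5.21 CPM, log2 fold change 3.92, edgeR adjusted p = 0.0158), and Ctss, cathepsin S (22.7 ± 9.95 to 184 ± 26.3 CPM, 3.02, adjusted p = 0.00322). Elane, Prtn3 and Ctsg of that list are also neutrophil markers and Gzma is also a T and NK cell marker. Gzmb counts were 6, 3 and 14 in WT, down to the floor of 3 counts, and 41, 378 and 104 in CgA-KO. The other clade A serpins of chromosome 12 had 2 of 9 called lower and 0 higher, with a median of -0.79, and DESeq2 called 6. The 2 called by edgeR were Serpina12, vaspin (70.3 ± 30.7 to 2.08 ± 1.85 CPM, log2 fold change -5.10), and Serpina1e, an alpha-1-antitrypsin paralog whose reads its near-identical copies may share (5462 ± 2241 to 180 ± 82.7 CPM, -4.92), with edgeR adjusted p-values of 0.00355 and 0.00282. The count of this list was 4 without WT replicate 1 or CgA-KO replicate 2, and that of the proteases was 5 without CgA-KO replicate 1.

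Of the interferon-gamma-induced genes 18 of 21 were called higher and 0 lower, with a median log2 fold change of 1.70 against -0.01 over all tested genes. Tgtp1, an interferon-induced GTPase, rose by 4.10 and the chemokine Cxcl10 by 2.76 on the log2 scale (edgeR adjusted p = 0.0122 and 0.00581). That count was 5 without WT replicate 2, 4 without WT replicate 3 and 9 without CgA-KO replicate 2. It was 2 at the stricter threshold of 0.01. Acute phase genes had 4 of 23 higher, with Lcn2 at 3.13 and Orm3 at 2.70, and a median of 0.08, near that of all genes, and 2 calls without WT replicate 2, WT replicate 3 or CgA-KO replicate 2. Glucocorticoid-responsive genes had 6 of 15 higher, with Cdkn1a at 3.44 and Mt2 at 2.80, a median of 0.63, and 3, 2 and 0 calls without WT replicates 1, 2 and 3. Growth hormone and STAT5 targets had 3 of 16 lower and 0 higher, with a median of -0.67, among them the steroid enzyme Hsd3b5 (-7.21) and the organic anion transporter Slco1a1 (-3.47). This list had 6 calls with DESeq2 and 1 with a filter of at least 10 counts in every library. Whether these lists and the paralogs share a regulator was not tested.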

How the data were processed

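Paired reads of liver poly(A) RNA came from 3 animals of each genotype, with a length of 100 bases. The authors quantified the reads with Salmon 1.4.0 against the GRCm38 transcriptome and deposited unscaled whole-number counts per gene symbol. How transcripts were summed to genes is not given in the sources used here. All 6 columns were mapped to a sample by their names. Every pair of libraries of one genotype differed beyond sampling noise (chi-square per degree of freedom 29.9 to 190), so each was kept as a replicate.

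The counts were tested with edgeR 4.0.16 in R 4.3.3 on the whole table (filterByExpr with a minimum count of 10, TMM factors, robust quasi-likelihood fit, two-sided test of genotype) with Benjamini-Hochberg adjustment over all genes and calls under 0.05. The scripts were checked on simulated counts. The authors used DESeq2, which with limma-voom (limma 3.58.1, DESeq2 1.42.0) was an alternative beside other scaling factors and filters, a stricter threshold of 0.01, a replicate block, joined paralogs and each library left out. Shared words of 31 and 100 bases were counted over all GENCODE transcripts of each gene.

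The members and the gene lists were chosen with earlier results of these data known. Named genes are all members, for each tested member the 3 genes with the nearest profile, and in each list other than cell markers the genes with the largest called change, up to 2 in each direction. Promoter windows are from RefSeq.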

Additional observations from a re-analysis of the deposited data

How the results depend on the processing

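The log2 fold changes of Serpina3c, Serpina3f, Serpina3g, Serpina3m and Serpina3k kept their direction in every alternative run. Only Serpina3n turned: its value of -0.03 became 0.21 with library size alone, 0.023 with upper-quartile factors and 0.00275 with a filter of at least 10 counts in every library, and ranged from -0.28 to 0.18 when each library was left out. The summed family (-0.98) passed the threshold with DESeq2 alone (-0.99, adjusted p = 0.0103) and ranged from -1.22 to -0.69 with a library left out. The number of members called, 4, was between 3 and 5 in the alternatives, 3 at a threshold of 0.01 and between 3 and 4 with a library left out. Scaling by library size alone moved the median of all genes to 0.26 and the share of higher calls from 69.1% to 86.6%. This setting leaves out the TMM factors, which were 1.058, 0.7563 and 0.9345 in WT replicates 1, 2 and 3. In CgA-KO replicates 1, 2 and 3 they were 1.121, 1.101 and 1.083. Why the factors differ, and the cause of the other shifts, was not tested.

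Deviations of same-numbered libraries correlated at 0.199, 0.0127 and -0.0659, and those of other pairs across genotypes at -0.264 to 0.234. These values do not show a pairing by replicate number, and from 3 livers per genotype they cannot exclude one. With a replicate block, 1498 genes were called in place of 1726 and 3 members in place of 4, the summed family stood at -1.03 (adjusted p = 0.0851), and not every liver correlated best with its own number. Without WT replicate 3 the calls over all genes fell to 394, without WT replicate 2 to 841, without CgA-KO replicate 1 to 744 and without CgA-KO replicate 2 to 976, and DESeq2 called 2579. The lists' counts ranged, over the libraries left out, from 4 to 19 for interferon-gamma-induced genes, 0 to 7 for glucocorticoid-responsive genes and 7 to 9 for Kupffer cell markers. At the threshold of 0.01 these lists had 2, 1 and 7 calls. T and NK cell markers and neutrophil markers then had 0 calls, and the other clade A serpins kept 2. Nothing in the labels says that the livers differ in batch, and 3 livers per genotype limit the precision.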
